A study of Mus musculus with 9 samples.

Results

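The cytosolic ribosome is built from ribosomal RNA and a fixed set of proteins, 1 copy of nearly each, divided between a large subunit that joins amino acids and a small subunit that reads the messenger RNA. Their genes lie on many chromosomes and are transcribed strongly in growing cells, and neural stem cells that divide hold high levels of their messenger RNAs. Most of these messenger RNAs begin with a C followed by a run of pyrimidines, the terminal oligopyrimidine tract, through which the mTOR pathway and the protein Larp1 control their translation. The genes described here were all rows of the count table whose mouse symbol is Rpl or Rps followed by a number and at most the letter a, x or y, or is Rplp0, Rplp1 or Rplp2. This rule found 75 of 54232 genes, 46 of the large and 29 of the small subunit, all typed as protein coding. Every one of the 75 was among the 17602 genes that passed the expression filter.

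RNA was sequenced from primary mouse embryonic neural stem cells, labelled as subventricular zone, grown on laminin with fibroblast growth factor at 10 ng/mL and epidermal growth factor at 20 ng/mL. The 3 groups received a non-targeting short hairpin RNA (shNT, the control) or a hairpin against Phf2 (sh900 or sh902), and RNA was taken 3 days later. Phf2 belongs to a family of histone demethylases. Each group held 3 libraries, of which 1 carried no date, 1 the date 30 August and 1 the date 3 September. What a date marks, how the hairpins were delivered and whether libraries came from separate cultures or animals is not given in the labels, so a p-value reflects only how these libraries vary, and that variation may be technical. The genotype, strain and age of the cells beyond "embryonic" are not given either.

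Phf2 stood at 48.6 to 56.3 CPM in the control libraries and at 14.9 to 28.1 CPM in the 6 hairpin libraries, with no overlap. CPM here means normalised CPM, the counts over the library total after scaling by TMM factors. Library totals ran from 23212472 to 32392496 counts. Of the 9 markers of neural stem cells, 9 passed the filter. Their summed levels were 6569 to 7679 CPM with shNT, 8556 to 12273 with sh900 and 7232 to 10065 with sh902. Single markers went both ways between these groups. In that order the means were 2473, 5651 and 4176 CPM for Vim and 286, 249 and 198 CPM for Sox2. Markers of other brain cells were present too and differed between libraries far more than the ribosomal protein genes did. Gfap, an astrocyte filament, reached 1377 CPM in the control library of 3 September and 610 in the undated one, and only 8.77 in that of 30 August. The 5 astrocyte markers summed to 578 to 4580 CPM with shNT, 515 to 2840 with sh900 and 498 to 1836 with sh902, and the 6 neuron markers, of which Rbfox3 did not pass the filter, to 17.5 to 249, 7.54 to 56.5 and 11.7 to 31.3. The 7 oligodendrocyte lineage markers, with Mag below the filter, summed to 1939 to 2913, 2192 to 2803 and 1274 to 2070 CPM. The 6 microglia markers summed to at most 3.33 CPM and the 4 endothelial markers to at most 8.11 CPM in any library.

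The members were compact genes spread over 19 chromosomes. The principal transcript had a median length of 878 bases, from 345 (Rps27) to 5179 (Rps15a), against 2559.5 over all protein-coding genes. Inside the bounds of 28 members lay 53 genes of small nucleolar RNAs, which guide the modification of ribosomal RNA. In the table, 288 numbered pseudogenes of 58 members had rows of their own. Their summed counts came to 5.18% to 6.34% of the members' counts, and reads that fit a gene and its pseudogene are split by a model, so members with many copies are less certain.

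RefSeq windows around the annotated start (build GRCm38.p6) were held for 55 of the 75 members, and 13 of the 55 (23.6%) began with a C and at least 4 further C or T at exactly that base. The same held for 813 of 27025 genes with a window (3.01%). The share was 7 of 34 for the large and 6 of 21 for the small subunit. The windows shown here belong to some of the members named in the comparisons and to Rps18, which is named in none. The first 5, Rps18 among them, are examples of a tract, and the others are shown for their values. Each window runs from 10 bases before the start to 20 bases from it, read 5′ to 3′ on the strand of the gene. The unbroken run of pyrimidines that opens with a C at the start is in capitals.
Rps6 (chr4:86857348-86857377, minus strand): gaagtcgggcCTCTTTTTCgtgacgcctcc
Rps15a (chr7:118116128-118116157, minus strand): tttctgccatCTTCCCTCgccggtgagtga
Rps27 (chr3:90213629-90213658, minus strand): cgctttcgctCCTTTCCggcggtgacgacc
Rplp2 (chr7:141447641-141447670, plus strand): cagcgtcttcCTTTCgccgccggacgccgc
Rps18 (chr17:33955646-33955675, minus strand): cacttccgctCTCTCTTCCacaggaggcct
Rps2 (chr17:24720053-24720082, plus strand): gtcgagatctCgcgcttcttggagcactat
Rpl12 (chr2:32961702-32961731, plus strand): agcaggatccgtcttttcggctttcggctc
Rpl23 (chr11:97782420-97782449, minus strand): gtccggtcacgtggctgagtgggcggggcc
Rpl37 (chr15:5116603-5116632, plus strand): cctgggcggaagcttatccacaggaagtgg
Rps4x (chrX:102189372-102189401, minus strand): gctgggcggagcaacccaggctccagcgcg
Rpl22 (chr4:152325716-152325745, plus strand): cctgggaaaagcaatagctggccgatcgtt
The first 5 hold 5 to 9 such bases, Rps2 holds 1 and the others none. In the Rpl12 window a run of pyrimidines lies just inside the annotated start instead, and the search did not count it. No such window was held for Rpl30.

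Levels between genes were compared per length, as counts per kilobase of the principal transcript scaled to the same total over all genes in each library (TPM). Rplp1, an acidic protein of the stalk that draws elongation factors to the ribosome, was the highest, with a mean of 2272 over the 9 libraries (range 1349 to 3338). Rpl13 followed at 1535 (983 to 1897), and the highest gene of the small subunit was Rps12 at 1303 (874 to 1801). The ranges of Rpl13 and Rps12 overlap almost wholly, so their order is not beyond the spread. The lowest were Rpl29 at 77.4 (44.3 to 107) and Rpl22 at 212 (155 to 249) in the large subunit and Rps15a at 79.6 (52.1 to 113) and Rps20 at 165 (104 to 216) in the small subunit. Rpl29 and Rps15a overlap with each other and with Rps20 only at their upper end. These levels depend on the transcript chosen. Rps15a had the longest one of all members, at 5179 bases, and that of Rps20 had 3706, against a median of 878. With the union of all exons as length, 7 of the 10 highest members stayed among the 10 highest, Rpl13 moved from rank 2 to 18 and Rps12 from rank 8 to 28, while Rplp1 stayed first and Rpl29 last.

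**Figure D1:**
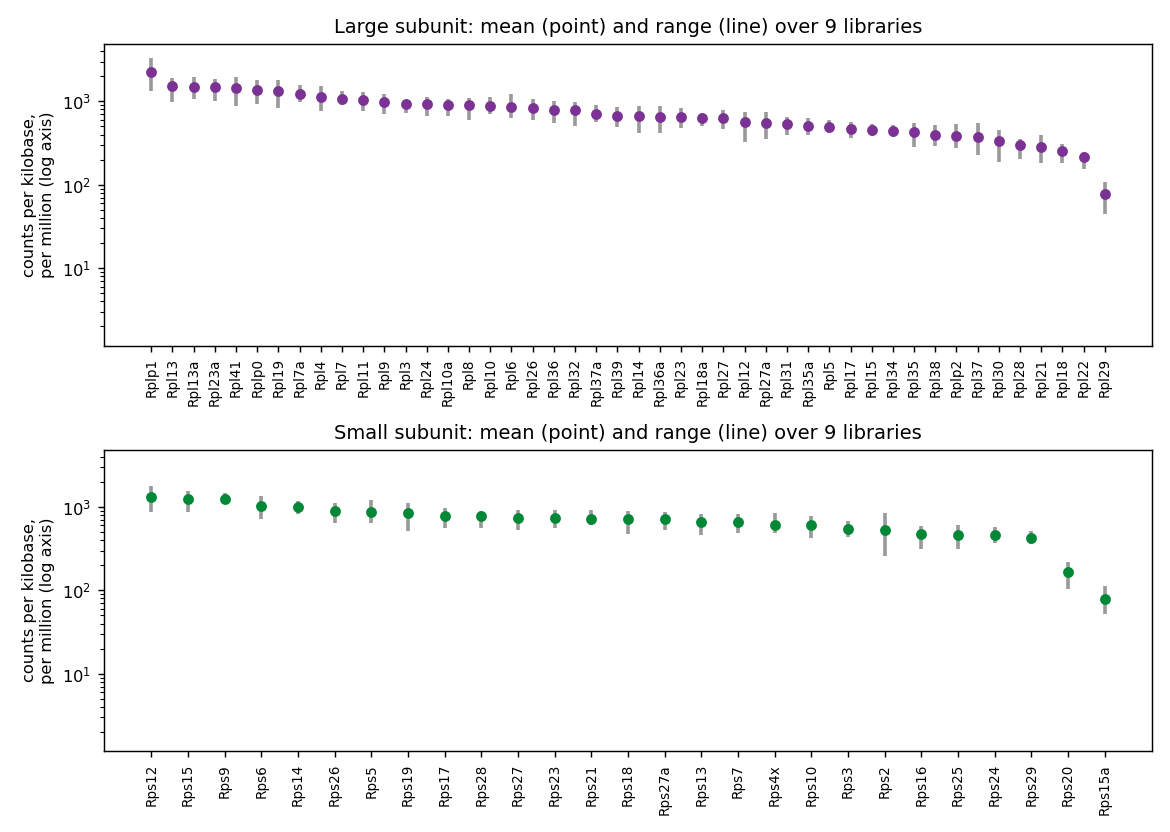
Level per length of the ribosomal protein genes reported by name, on a log axis, large subunit above and small subunit below, ordered by mean; points are means over the 9 libraries and lines run from the lowest to the highest library. Rplp1 stands highest at 2272 and Rpl29 and Rps15a lowest at 77.4 and 79.6.

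The members took 2.06% to 3.10% of all counts of a library. In the control libraries the share was 2.67% (undated), 2.76% (30 August) and 2.06% (3 September). With sh900 it was 2.70%, 3.10% and 2.28%, and with sh902 3.07%, 2.77% and 2.66%, in the same order. Each hairpin library thus stood above the control library of its label, by 0.03 to 0.60 percentage points except for the 30 August pair of sh902, where the values were 2.768% and 2.764%. The groups overlapped, at 2.499% ± 0.382 with shNT, 2.69% ± 0.414 with sh900 and 2.83% ± 0.214 with sh902 (SD, n = 3 each). The lowest of the 9 values was the 3 September control, and without it the control mean was 2.72%, above the sh900 mean. That sh900 mean still held its own 3 September library, at 2.28% the lowest of its group, so the means are not matched by label. A share of RNA does not separate fewer cells of a type from less RNA per cell.

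Both subunits moved largely together. Large subunit genes took 1.35% to 2.05% and small subunit genes 0.709% to 1.06% of a library. Their ratio stayed between 1.88 and 1.98 in all 9 libraries. It was 1.875 to 1.915 with shNT, 1.909 to 1.962 with sh900 and 1.921 to 1.983 with sh902. Each hairpin library stood above the control of its label in this ratio, which was not tested. Translation factors, from a list of 37 genes, took 1.74% to 2.47% and were lowest and highest in the same libraries as the members, the control of 3 September and sh900 of 30 August.

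**Figure D2:**
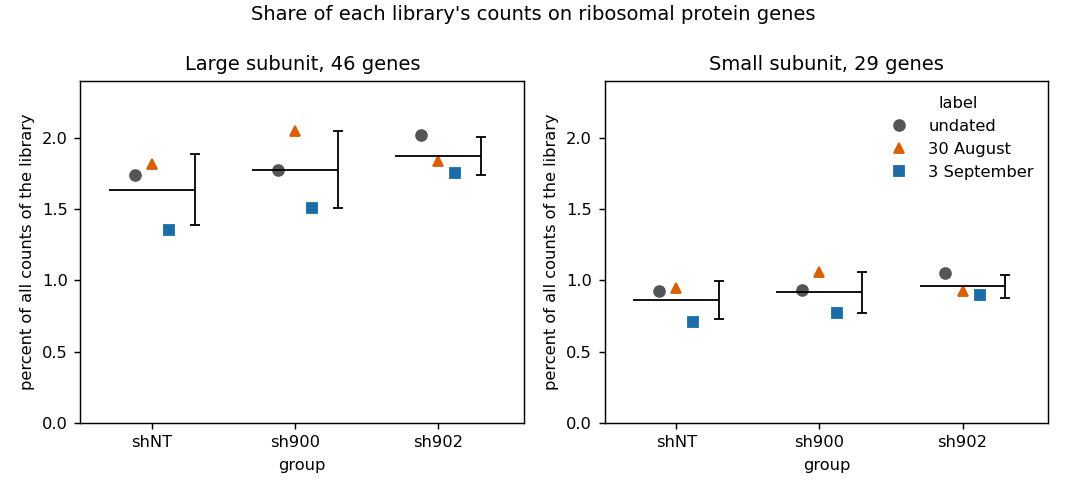
Percent of each library's counts on the 46 large subunit and 29 small subunit genes, by group; symbols mark the label of the library, horizontal lines the mean of 3 libraries and bars 1 SD. In each of the 3 groups the 3 September library is the lowest (1.35%, 1.51% and 1.76% for the large subunit with shNT, sh900 and sh902). The 3 groups overlap.

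Whether lowering Phf2 moved single ribosomal protein genes was asked with edgeR's quasi-likelihood test over all 17602 genes. With no block for the label, 0 of 75 members were called at an adjusted p under 0.05 for sh900, sh902 or the mean of both hairpins against shNT. The background there was 0% of all genes for each contrast. At an unadjusted p under 0.05 stood 1, 1 and 0 members. With the label as a replicate block, 0 of 75 members were again called for each of the 3 contrasts, while 8.85% of all genes were called for sh900, 10.5% for sh902 and 11.7% for the mean. At an unadjusted p under 0.05 stood 4, 7 and 8 members. The smallest adjusted p among the members for the mean was 0.103, of Rpl19. DESeq2 and limma-voom, with and without the block, called 0 members for these contrasts too. Over all genes DESeq2 without the block called 488 higher and 298 lower for sh900, and 373 and 475 for sh902. For the mean it called 444 and 311, and 1582 and 1432 with the block. There limma-voom called 0 genes without the block, and 1245 higher and 1067 lower with it.

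The members nevertheless lay mostly on one side. For the mean of both hairpins 65 of 75 had a log2 fold change above 0, with and without the block. Their median was 0.17 in both fits, against -0.03 without and -0.02 with the block over all genes. The medians were 0.17 and 0.17 for sh900 and sh902 without the block. In the blocked fit the large subunit had a median of 0.19 and the small subunit of 0.17. Without the 3 September control library the median of the members was 0.03 in the fit without the block, with 45 of 75 above 0, and 0.13 in the blocked fit, with 61 of 75 above 0. That library also had the lowest summed mitosis genes (311 CPM, against 1191 to 4649 in the other 8) and the highest Gfap (1377 CPM). Stem cell markers went both ways in it: Nes, a filament, and Vim were lowest there, at 114 and 1759 CPM. Sox2 and Prom1 were highest there, at 346 and 32.3 CPM. The part of these differences in the offset was not tested. With the block, 4 of 5 tested neuron markers and 3 of 6 oligodendrocyte lineage markers fell for the mean of both hairpins. So did 1 of 5 astrocyte markers, while of 9 stem cell markers 2 rose and 3 fell (median -0.44). The part of these markers was not tested either.

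Undated libraries are matched here only by lacking a date: deviations of the undated control correlated at 0.145 and 0.0799 with those of the undated hairpin libraries and at 0.285 and 0.302 with those of the 3 September ones. Against the control library of the same label, the median log2 ratio of the members was 0.10 (undated), 0.28 (30 August) and 0.09 (3 September) for sh900 and 0.20, -0.02 and 0.35 for sh902. Over all 17168 genes with counts in every library the 6 medians lay between -0.01 and 0.04. In the 30 August library of sh902, 32 of 75 members were above their control, and in the other 5 hairpin libraries 52 to 72. In 6 of 6 hairpin libraries 21 members were above the control of their label, beside a background of 13% of all genes, and 0 members were below it in 6 of 6, beside 11.9%. The 21 comprised 14 genes of the large and 7 of the small subunit.

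Among these, Rpl19 had ratios of 0.25, 0.47 and 0.26 with sh900 and 0.36, 0.23 and 0.56 with sh902. Its CPM were 464, 533 and 345 with shNT, 553, 740 and 413 with sh900 and 594, 626 and 510 with sh902 (undated, 30 August, 3 September). The groups overlap, and its log2 fold change for the mean of both hairpins with the block was 0.36 (SE 0.13, adjusted p = 0.103). Rpl4, a protein that lines the exit tunnel, had ratios of 0.21 to 0.51 in the 6 libraries and a log2 fold change of 0.35 (SE 0.13, adjusted p = 0.117). The other 3 of the 5 highest members were Rps2 at 0.41, Rplp1 at 0.34 and Rpl12 at 0.33, none called. The 5 lowest were Rpl30 at -0.24, Rps27 at -0.20, Rpl37 at -0.17, Rps15a at -0.14 and Rpl23 at -0.11, none called.

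**Figure D3:**
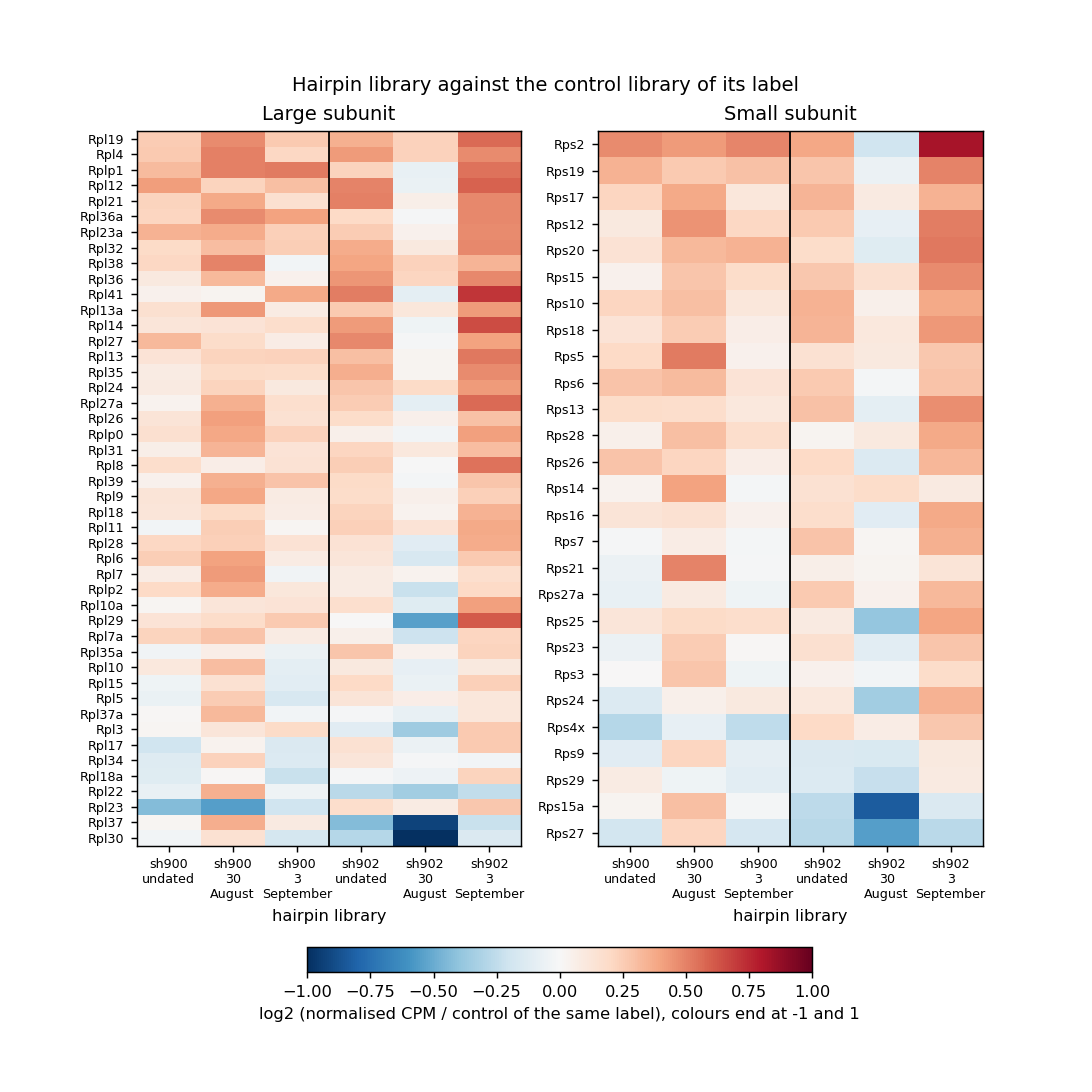
Log2 ratio of each hairpin library to the control library of its label, for the large subunit genes (left) and the small subunit genes reported by name (right), ordered by their mean over the 6 libraries; red is above and blue below the control, and colours end at -1 and 1. The 30 August library of sh902 has a median of -0.02 where the others have 0.09 to 0.35. The 5 members that are blue in all 3 sh902 columns are Rpl37, Rpl30, Rps15a, Rps27 and Rpl22.

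Members with known roles outside the ribosome or in its control were named whatever their values. Rpl5 and Rpl11, which bind and hold back Mdm2 when ribosome assembly fails, had log2 fold changes of 0.06 and 0.17 for the mean of both hairpins with the block (SE 0.12 each). Rps6, the protein that S6 kinase phosphorylates downstream of mTOR, was at 0.22 (SE 0.12), and Rps27a, made as a fusion with ubiquitin, at 0.10 (SE 0.12). Rps19 and Rps14, whose loss underlies anaemias in humans, were at 0.27 (SE 0.13) and 0.14 (SE 0.12). The stalk genes Rplp0, Rplp1 and Rplp2 were at 0.20 (SE 0.14), 0.34 (SE 0.14) and 0.13 (SE 0.13). Rpl22 was at -0.10 (SE 0.12). None of these had an adjusted p under 0.152 in edgeR's test.

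With TMM scaling, the 1 call in a hairpin contrast was between the 2 hairpins. Without the block 0 members were called for sh902 against sh900 (0% of all genes, 4 members at an unadjusted p under 0.05), and with it 1 of 75 was called beside 4.22% of all genes. That gene was Rpl23 (ENSMUSG00000071415, chromosome 11, 97777527 to 97782437, minus strand, GRCm38), a protein of the large subunit at the face that meets the small subunit and one of those that can bind Mdm2. Its CPM were 398, 411 and 326 with shNT, 295, 281 and 284 with sh900 and 449, 434 and 393 with sh902. The 3 sh900 libraries were below all 6 others, and sh902 overlapped with shNT. Rpl23 was the 1 member of 75 with sh900 below all 6 others, beside 3.64% of all genes. The log2 fold change of sh902 against sh900 was 0.57 (SE 0.13, adjusted p = 0.0490, edgeR with the block). It was -0.39 (SE 0.13, adjusted p = 0.0925) for sh900 against shNT and 0.17 (SE 0.13, adjusted p = 0.415) for sh902 against shNT. Leaving out each of the 9 libraries in turn, Rpl23 was called in 1 of 9 fits, with log2 fold changes of 0.51 to 0.65 and adjusted p of 0.0252 to 0.263. The 1 fit that kept the call was the one without the 30 August control library. The table holds 0 numbered pseudogenes of Rpl23.

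On normalised CPM, the 3 libraries of sh900 were all below the 3 controls for 1 member, Rpl23, beside 8.82% of all genes, and all above them for 0 members, beside 8.58%. For sh902 the groups did not overlap for 6 higher members, among them Rpl4, Rpl13a, Rpl36, Rpl38 and Rps15, beside 10.6%, and for 4 lower ones (Rpl22, Rpl30, Rpl37 and Rps27), beside 10.9%. None of these 4 counts, taken as a share of the 75, exceeded its background. Set against all 6 other libraries, sh902 was wholly below for 2 members, Rpl22 and Rpl37, beside 4.74% of all genes.

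Since the members moved together, each was also expressed as a share of the summed counts of all 75, which sets aside the level of the whole set. This scale was chosen after the values were seen. On it the sh902 libraries lay wholly below the other 6 for 7 members, beside 3.69% of all genes. The 4 of these that were called in a fit on this scale are described here. Rpl37 (ENSMUSG00000041841, chromosome 15, 5116645 to 5119140), a small zinc-binding protein of the large subunit, made up 0.720%, 0.683% and 0.731% of the members' counts with shNT and 0.680%, 0.727% and 0.727% with sh900, but 0.466%, 0.369% and 0.496% with sh902. The sh902 libraries lay wholly below the other 6, at 0.444% ± 0.0665 against 0.711% ± 0.0251 with shNT (SD, n = 3 each). Rps15a (ENSMUSG00000008683, chromosome 7), of the small subunit, had 0.917%, 0.916% and 0.968% with shNT, 0.870%, 0.931% and 0.896% with sh900 and 0.670%, 0.528% and 0.695% with sh902. Rpl30 (ENSMUSG00000058600, chromosome 15) had 0.682%, 0.694% and 0.731%, then 0.624%, 0.636% and 0.606%, then 0.491%, 0.327% and 0.523%. Rps27 (ENSMUSG00000090733, chromosome 3), a zinc-binding protein of the small subunit, had 0.609%, 0.508% and 0.699%, then 0.499%, 0.486% and 0.583%, then 0.440%, 0.356% and 0.459%. In all 4 the 30 August library of sh902 was the lowest of the 9.

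A fit with the block, scaled to the summed members, called these 4 lower for sh902 against shNT and 0 members higher, beside 7.64% of all genes called lower on that scale. The log2 fold changes were -0.69 for Rpl37 (SE 0.15, adjusted p = 0.0218), -0.57 for Rps15a (SE 0.15, adjusted p = 0.0412), -0.53 for Rps27 (SE 0.14, adjusted p = 0.0412) and -0.67 for Rpl30 (SE 0.17, adjusted p = 0.0421), all from edgeR. Rpl37 was also called lower in sh902 than in sh900, at -0.69 (SE 0.15, adjusted p = 0.0383), beside 2.87% of all genes, and 0 members were called for sh900 against shNT. That Rpl37 call between the hairpins was kept in 1 of 9 fits with a library left out (adjusted p of 0.0158 to 0.204). With the usual TMM scaling none of the 4 was called, at -0.51 for Rpl37, -0.48 for Rpl30, -0.39 for Rps15a and -0.36 for Rps27 with adjusted p of 0.126 to 0.226. When 1 library was left out, Rpl37 was called in 5 of 9 fits, Rps15a and Rps27 in 2 each and Rpl30 in 1, with log2 fold changes for the 4 genes from -0.79 to -0.45. Adding the counts of numbered pseudogenes moved the TMM value of Rpl30, which has 9 of them with 661 to 1610 counts, from -0.480 to -0.476, and Rpl37 has none.

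Other members differed between the hairpins on this scale in another way. Rps4x, encoded on the X chromosome, made up 1.37%, 1.14% and 1.33% with shNT, 1.05%, 0.891% and 1.05% with sh900 and 1.38%, 1.23% and 1.27% with sh902, so that sh900 was below the other 6 libraries. Rps7 was at 1.09% to 1.18% with sh900 and at 1.29% to 1.32% with sh902, with the controls between them at 1.24% to 1.27%. Rpl36 was at 0.631% to 0.675% with sh902 and at 0.550% to 0.589% in the other 6. None of these 3 was called for a hairpin contrast by either scaling. On this scale the sh900 libraries lay wholly below the other 6 for 9 members, beside a background of 1.74%, and wholly above for 5, beside 2.74%. For sh902 the counts were 7 below, beside 3.69%, and 5 above, beside 1.91%. Dividing by the summed members takes out the variation that the members share but not that of other genes, so the background on this scale is not a like comparison and nothing is read from it.

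**Figure D4:**
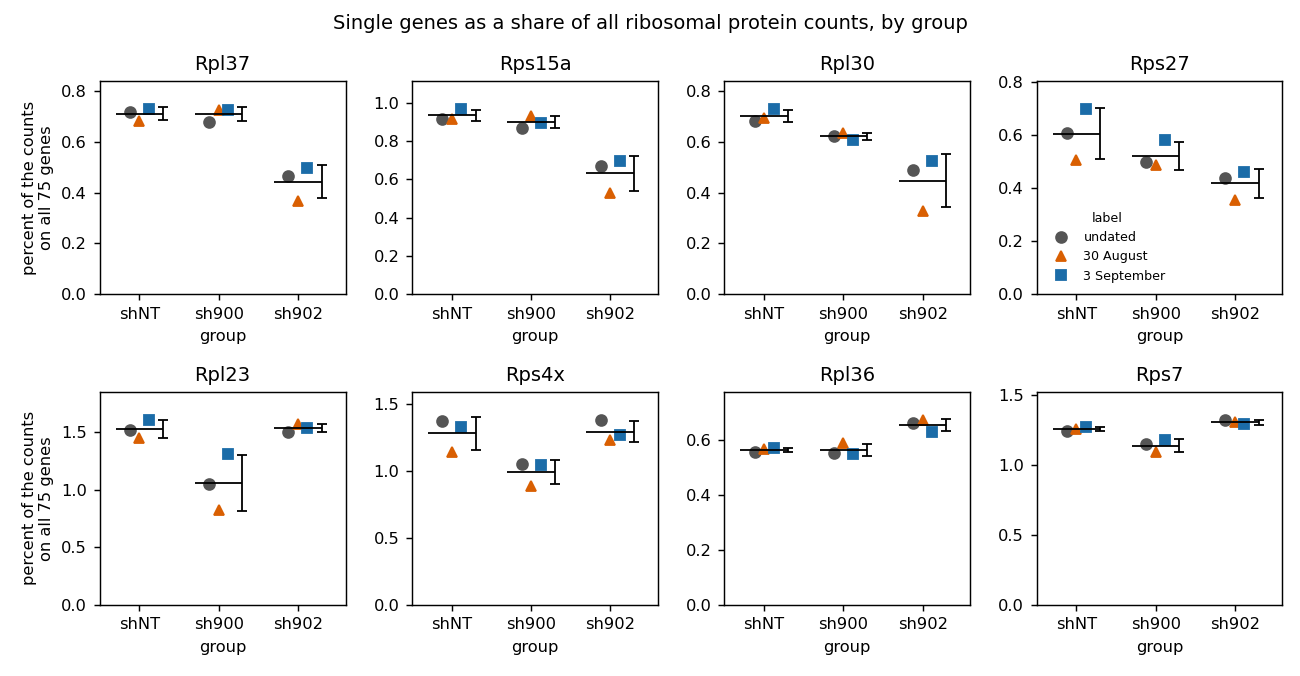
Share of single genes among the summed counts of all 75 ribosomal protein genes, in percent from 0, by group; symbols mark the label, lines the mean of 3 libraries and bars 1 SD. Rpl37, Rps15a, Rpl30 and Rps27 are lowest with sh902, Rpl23, Rps4x and Rps7 with sh900, and Rpl36 is highest with sh902.

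The label separated the members more than the hairpins did. In a model of group and label, 17 of 75 members were called higher in the libraries of 30 August than in those of 3 September, beside 10.1% of all genes, and 0 lower, beside 10.4%. They were 10 genes of the large and 7 of the small subunit. The log2 fold change was above 0 for 74 of 75 members, with a median of 0.43 against 0.02 over all genes. Scaling by library size alone shifted the median of all genes to -0.09 and that of the members to 0.32. It called 8 members higher, beside 1354 genes higher and 2244 lower.

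Rps2, at the small subunit's entry for messenger RNA, differed most. Its CPM were 376 and 154 with shNT, 506 and 215 with sh900 and 328 and 272 with sh902 (30 August, then 3 September), with a log2 fold change of 0.94 (SE 0.20, adjusted p = 0.0166). Its 11 numbered pseudogenes held 9047 to 28863 counts per library against 4028 to 12785 of Rps2 itself, so the split of reads bears heavily on its level. Rps19 stood at 389 and 216, 466 and 265, and 373 and 305 CPM in the same order, with a log2 fold change of 0.65 (SE 0.15, adjusted p = 0.0193). Rpl12, of the stalk base, stood at 430 and 222, 501 and 274, and 410 and 335 CPM, with a log2 fold change of 0.71 (SE 0.16, adjusted p = 0.0196). In all 3 groups these genes were higher on 30 August, and the gap was smallest with sh902.

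The gap in the members' median was a log2 ratio of CPM of 0.45 among the controls, 0.68 for sh900 and 0.13 for sh902; whether these gaps differ was not tested. Higher values on 30 August in 3 of 3 groups were found for 60 members, beside 26.4% of all genes, and lower ones in 3 of 3 for 0, beside 26.6%. The call count rested on single libraries: leaving out the 3 September control, the 30 August sh900 or the 3 September sh900 library gave 0 calls, and leaving out the 30 August sh902 library gave 54. Calls over all genes in the fits with 1 library left out are not set beside these counts. Whether the 54 calls are particular to the members is therefore not shown. With the 6 dated libraries alone 0 members were called, beside 948 genes higher and 1216 lower of 17677. Rpl22, whose protein binds other RNAs and is not needed for translation in general, was the 1 member with a value below 0, at -0.09 (SE 0.14, adjusted p = 0.698). It stood at 219 and 249 CPM with shNT, 279 and 242 with sh900 and 172 and 210 with sh902. Scaled to the summed members, Rpl22 was called lower (-0.51, SE 0.14, adjusted p = 0.0244) and Rps2 higher (0.51, SE 0.16, adjusted p = 0.0384) on 30 August, beside 27.7% of all genes called on that scale.

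**Figure D5:**
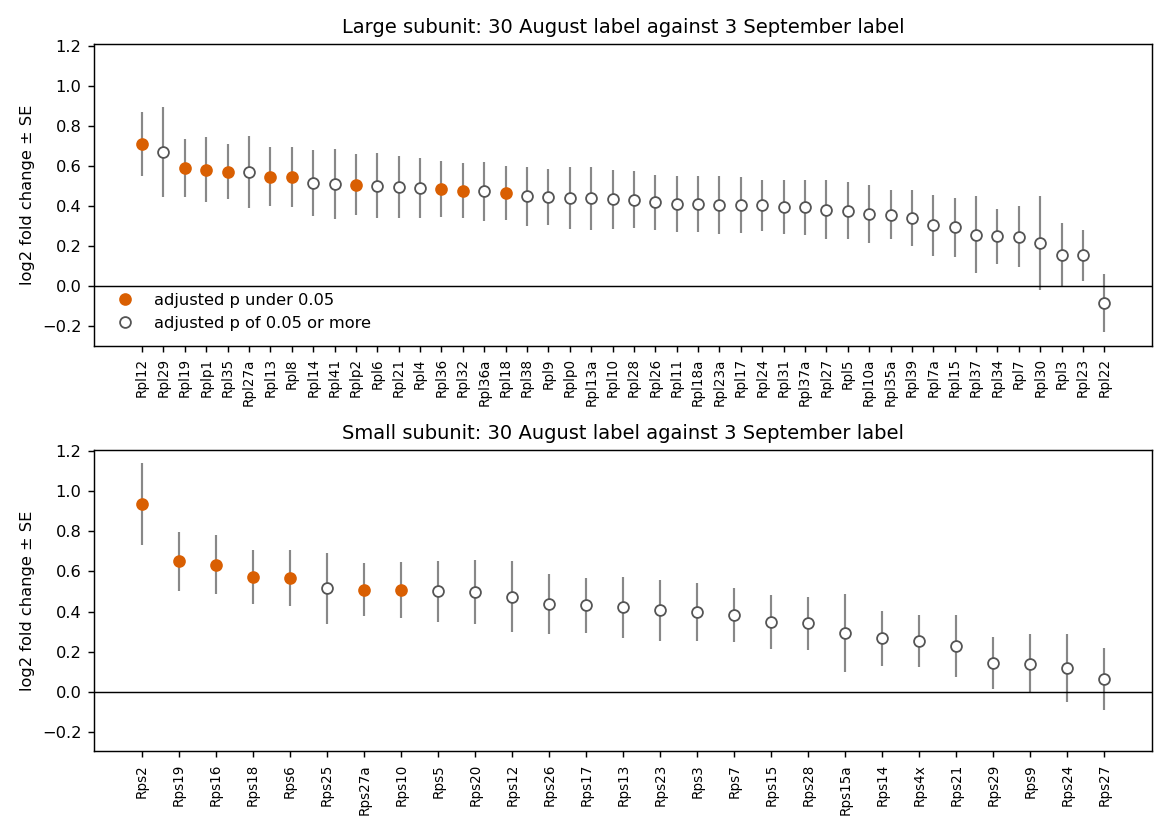
Log2 fold change of the ribosomal protein genes reported by name between the 30 August and 3 September labels, with its SE, from the model of group and label; filled points have an adjusted p under 0.05. All plotted genes but Rpl22 lie above 0, and the 17 called genes include Rps2, Rps19 and Rpl12.

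Cell type markers moved with the label as well. Aqp4, an astrocyte water channel, was at 46.2 CPM on 30 August and 1514 on 3 September with shNT, 5.43 and 538 with sh900 and 12.1 and 292 with sh902. Elavl3, an RNA-binding protein of neurons, was at 10.8 and 38.3, 3.33 and 11.4, and 8.63 and 13.4 CPM. Their part in the label difference of the members was not tested. Mitosis genes were summed to 4649 and 311 CPM with shNT, 1191 and 1725 with sh900 and 1472 and 2366 with sh902, so that with both hairpins they were lower on 30 August, where the members were higher.

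The members varied together. Between pairs of members, the deviations of log2 CPM from the group mean over the 9 libraries had a median Pearson r of 0.94, and 0.88 once label means were removed too, against 0.00 for pairs of all genes; all of these share the depth and scaling of their library. The median was 0.94 among large and 0.92 among small subunit genes; the difference was not tested. The member least like the others was Rpl22, with a median r of 0.15 to the other members, followed by Rpl23 at 0.60, Rps27 at 0.62, Rps29 at 0.62 and Rps24 at 0.68. Members with a tract at the annotated start had a median label change of 0.45 (13 genes), those with a window but no tract 0.41 (42 genes), and those without a window 0.45 (20 genes). For the mean of both hairpins the medians were 0.17, 0.17 and 0.19. Across the 75 members, the label change had a Spearman rho of 0.34 with the GC content of the transcript and of 0.03 with its length, and the sh902 change one of 0.34 and -0.20; members share libraries and are not independent.

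Ribosomal proteins that the symbol rule leaves out had a like pattern. Of 14 such genes 10 passed the filter, and with the block 1 rose and 0 fell for the mean of both hairpins (median 0.20), beside 11.7% of all genes called. The 1 was Rps27l, a paralog of Rps27 and a known p53 target, at 75.1, 147 and 42.8 CPM with shNT, 127, 195 and 88.9 with sh900 and 149, 178 and 107 with sh902, with a log2 fold change of 0.79 (SE 0.17, adjusted p = 0.0245). The other 9 lay between -0.07 and 0.45, among them Rpl36al at 0.45, Rpsa at 0.40, Rpl7l1 at 0.23, Rack1 at 0.18, Fau at 0.05, Rpl22l1 at -0.03, Rps27rt at -0.06 and Rps3a1 at -0.07. Rpl39l was at 0 counts in every library, and Rpl10l, Rpl3l and Rps4l had at most 3 counts in any. For the label 5 of the 10 rose and 0 fell, beside 10.1% and 10.4% of all genes.

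Genes around the ribosome were counted with the block for the mean of both hairpins, beside the background of 11.7%. Without the block 0 genes of any list were called. With the dated libraries alone, the block called 1 gene higher and 0 lower of 17677 for the mean. The counts given here are from all 9 libraries. Of 49 ribosome biogenesis genes 4 rose and 0 fell (median 0.32), among them Polr1e of RNA polymerase I at 0.87 (SE 0.15), Rrp12 at 0.79 (SE 0.16) and the large subunit's export adaptor Nmd3 at 0.62 (SE 0.13), with adjusted p of 0.0128, 0.0207 and 0.0249. Of 37 translation factors 2 rose and 0 fell (median 0.16), Eif3g at 0.50 (SE 0.11) and the helicase Eif4a1 at 0.59 (SE 0.14). Of 78 mitochondrial ribosomal proteins 7 rose and 1, Mrps33, fell by 0.65 on the log2 scale (median of the list 0.21); Mrps6 rose by 0.93 and Mrps26 by 0.62. Of 13 noncoding hosts of small nucleolar RNAs 1 rose, Snhg15 by 0.95 (median 0.13). Of 25 genes that control ribosomal protein synthesis 3 rose and 4 fell (median -0.06), among them the mTOR inhibitor Deptor, which rose by 1.83 (SE 0.24), and the Myc relatives Mycl and Mxd1, which fell by 1.21 (SE 0.20) and by 0.94 (SE 0.18). Of 8 genes that link ribosomal proteins to p53, 2 rose and 0 fell (median 0.28), the cell cycle inhibitor Cdkn1a by 1.61 (SE 0.22) and Mdm2, which binds Rpl5, Rpl11 and Rpl23, by 0.72 (SE 0.16). Of 12 chaperones and export factors and of 22 mitosis genes 0 were called, with medians of 0.03 and 0.10. For the label 33 of the 49 biogenesis genes rose and 0 fell, beside 10.1% and 10.4% of all genes, with a median of 0.79.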

How the data were processed

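The authors deposited 1 table of expected counts per gene, estimated with RSEM, with no normalisation; the values were whole numbers. Per the submitters' processing notes FastQC, cutadapt, Trimmomatic 0.36, STAR 2.5.0a and RSEM were used with the genome GRCm38; settings and annotation release were not given in these sources. Nothing in the labels says that strand was kept. Column names gave the groups and dates; the undated columns were matched to the undated titles. Symbols, lengths and coordinates came from GENCODE M21 by Ensembl identifier (54079 matched, 153 not), and start windows from RefSeq. The members, lists and rules were chosen with earlier results of these data known.

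All 9 libraries entered 1 model in R 4.3.3 with edgeR 4.0.16 (robust quasi-likelihood F test, TMM factors, filterByExpr by group, 17602 genes holding 99.9% of counts). A call is an adjusted p (Benjamini-Hochberg) below 0.05, and SE is the log2 fold change over the square root of F. The scripts were tested on simulated counts. Alternatives were the date label as a replicate block, RLE factors, library size alone, upper quartile factors, other filters, DESeq2 1.42.0, limma-voom (limma 3.58.1), the dated libraries alone, pseudogene counts added and each library left out; scaling to the summed members was added after the data were seen. The blocked fit adds label to group. Titles give the pairing: deviations from group means correlated across groups with r of 0.402 to 0.627 for the 30 August libraries, 0.456 to 0.645 for the 3 September libraries and 0.0799 to 0.399 for the undated libraries, which share only the absence of a date. No library was a duplicate of another of its group (chi-square per degree of freedom of at least 37.95). A few genes are counted in every total but not reported by name here or plotted singly. Named genes were otherwise the 2 highest and 2 lowest members per subunit by level per length, the 5 highest and 5 lowest changes for the mean of both hairpins with the block, up to 3 called members per direction and contrast, a list with known roles, the left-out ribosomal proteins and up to 3 called genes per list. Rps15a, Rpl37, Rpl30, Rps27, Rps4x, Rps7 and Rpl36 on the family scale were taken up after their values were seen. Rps18 was shown only as an example of a tract.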

Additional observations from a re-analysis of the deposited data

Results flagged for a closer look

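Rpl23 differed between the hairpins by a test of the difference itself. Its log2 fold change of sh902 against sh900 was 0.57 with the replicate block (edgeR, adjusted p = 0.0490). Every sh900 library lay below every other library, which held for 1 member of 75, beside 3.64% of all genes. Rpl37 differed between the hairpins on the scale of the summed members, at -0.69 with the block (edgeR, adjusted p = 0.0383). Every sh902 library lay below every other library. On this scale that held for 7 members, beside 3.69% of all genes, a background that is not a like comparison. This scale and Rpl37 were taken up after the values were seen, so that adjusted p is no independent support. In edgeR's blocked fit with the usual TMM scaling and filter, Rpl37 was at -0.68 for this contrast and was not called. The Rpl23 call and the Rpl37 call given here were each kept in 1 of 9 fits with a library left out. In edgeR's fits without the block neither gene was called. DESeq2 without the block called 1 member higher in sh902 than in sh900, beside 439 genes higher and 596 lower of 17602.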

How the results depend on the processing

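For sh900, sh902 and the mean of both hairpins against shNT, 0 members were called without the block under every scaling, filter and tool run and without any 1 library; the contrast of the mean uses all 9 libraries, so a fit of only the groups compared is the same fit. Over all genes DESeq2 without the block called 444 higher and 311 lower for the mean, and the fit with no filter 6 and 2. The replicate block alone gave 0 calls among the members for these 3 contrasts, and scaled to the summed members it gave 4 for sh902. With the block and the dated libraries alone, 0 members were called for these contrasts. Over all 17677 genes that fit called 4 higher and 0 lower for sh900, 0 and 0 for sh902, and 1 and 0 for the mean. With the block and 1 library left out, the calls ran from 0 to 2 for sh902 and from 0 to 6 for the mean. The 2 and the 6 were both without the 30 August sh902 library. On the scale of the summed members they ran from 0 to 4 for sh902. Calls over all genes in these fits are not set beside the counts, so nothing about the members is read from them. For sh902 against sh900 the fit without the block gave 0 calls and the replicate block gave 1. The block gave 1 also with library size alone, upper quartile factors, the filter of 1 CPM in 3 libraries, limma-voom, pseudogene counts added and scaling to the summed members, 2 with no filter, 2 with DESeq2 and 0 with RLE factors. DESeq2 without the block gave 1. Over all genes the block called 581 higher and 950 lower of 38220 with no filter, and 682 and 1101 with DESeq2. The block called 302 and 467 genes with RLE factors, 340 and 359 with library size alone and 350 and 409 with upper quartile factors. With limma-voom the calls were 356 and 521. DESeq2 without the block called 439 and 596. Leaving out 1 library gave 0 to 1 with the block on either scale. For the label, 17 calls became 8 with library size alone, 27 with no filter and 26 with DESeq2. They became 2 scaled to the summed members, and 0 with the dated libraries alone or with no group term. With 1 library left out they ran from 0 to 54. Over all genes, library size alone called 1354 higher and 2244 lower, and DESeq2 2146 and 2239. The counts were 1846 and 1968 of 38220 with no filter, and 948 and 1216 of 17677 with the dated libraries alone. The median log2 fold change of the members for the mean of both hairpins was 0.17, 0.13 to 0.17 over the block and most other settings, 0.22 with no filter and 0.23 with no filter and the block (where the median of all genes was -0.30), 0.01 scaled to the summed members, and 0.028 (without the 3 September control) to 0.29 (without the 30 August control) with 1 library left out. As a share of the per-length total the members took 5.19% with shNT, 5.88% with sh900 and 5.96% with sh902. Of 273 recomputed values of 23 named results, 4 had another sign, for Rpl5, Rplp2 and Rps27a, and 10 were called in another way. The cause of these differences was not tested. With 3 libraries per group, changes of the size of the members' median are near the SE of a single gene and were not detectable gene by gene.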
